A study of Mus musculus with 7 samples.

Results

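Among 15347 HDAC1 peaks called in mouse limb buds, 816 were short and lay in the wide spaces between protein-coding genes. They made up 5.32% of the list (95% Wilson interval 4.97 to 5.68%). These intergenic peaks beyond 50 kb were selected on position and length: each was shorter than 800 bp, touched no protein-coding gene body, touched no window around a transcription start site (TSS), counted from 2 kb before it to 1 kb after it, and had its nearest edge over 50 kb from the nearest protein-coding TSS. The nearest was 50053 bp away and the median was 168682 bp. ChIP-seq for HDAC1 was performed on pooled forelimb and hindlimb buds of Swiss Webster mouse embryos at E11.5 (40-44S), with no genotype or treatment on the labels, to ask whether HDAC1 occupies the enhancers bound by GLI3, the main repressor of the Hedgehog (HH) pathway. The labels gave 4 HDAC1 ChIP samples, made with a rabbit polyclonal antibody, and 3 inputs of unprecipitated chromatin, and each sample drew on 3 litters. The whole limb bud was dissociated, so mesenchyme, ectoderm and blood vessels were measured together. The file used here is 1 peak list for all samples, with a chromosome, a start and an end for each peak in rank order, and no value per sample. The spread between samples and the depth behind a peak are therefore unknown, no test over samples was possible, and neighbouring regions are not replicates. The intervals given below cover counting over regions only.

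HDAC1 is a class I histone deacetylase, which removes acetyl groups from lysines of histone tails. It does not recognise a DNA sequence by itself and is brought to chromatin in complexes such as NuRD, SIN3 and CoREST by DNA-binding factors and corepressors. Long spaces without coding genes, often called gene deserts, commonly flank genes for developmental regulators and hold enhancers that act over large distances. The limb bud is a tissue in which several such deserts, including those on both sides of the Hoxd cluster, are known to carry limb enhancers.

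The stretches below show what these regions look like. The first 5 are the best-ranked peaks of 5 of the 6 gaps with the most members, where a gap is the space between neighbouring protein-coding gene bodies and is named by the genes at its ends. They are up to 300 bases from the middle of each peak, on the plus strand of mm10, and capitals mark matches on either strand to CAGATG or CAGCTG (E-boxes, read by basic helix-loop-helix factors), TAATTA (the core read by homeodomain factors), ACATTCC (TEAD), GACCACCCA (GLI), AGNNGGCGC (CTCF) or TTCAGCACC (the left part of the REST site).
Thap1 to Zfp703, rank 4914, chr8:26673125-26673424: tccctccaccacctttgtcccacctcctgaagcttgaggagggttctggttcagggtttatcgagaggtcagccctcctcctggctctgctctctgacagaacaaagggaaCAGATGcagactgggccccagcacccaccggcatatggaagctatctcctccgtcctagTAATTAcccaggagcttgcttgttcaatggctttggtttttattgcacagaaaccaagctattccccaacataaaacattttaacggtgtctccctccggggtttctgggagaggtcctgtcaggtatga
Mki67 to Mgmt, rank 6992, chr7:136406450-136406749: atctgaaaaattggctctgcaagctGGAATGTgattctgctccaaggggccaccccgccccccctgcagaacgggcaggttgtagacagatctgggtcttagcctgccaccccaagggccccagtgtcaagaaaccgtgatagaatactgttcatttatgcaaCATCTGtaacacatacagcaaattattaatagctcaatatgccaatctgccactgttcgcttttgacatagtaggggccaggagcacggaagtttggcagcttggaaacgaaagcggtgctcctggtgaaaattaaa
H2al1j to Bcor, rank 1794, chrX:12007275-12007574: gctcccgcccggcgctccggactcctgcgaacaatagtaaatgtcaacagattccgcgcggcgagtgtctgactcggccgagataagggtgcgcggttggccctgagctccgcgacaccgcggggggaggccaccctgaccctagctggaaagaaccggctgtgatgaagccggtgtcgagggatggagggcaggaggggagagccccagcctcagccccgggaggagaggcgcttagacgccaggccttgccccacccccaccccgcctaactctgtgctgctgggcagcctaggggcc
Mtx2 to Hnrnpa3, rank 6491, chr2:75492300-75492599: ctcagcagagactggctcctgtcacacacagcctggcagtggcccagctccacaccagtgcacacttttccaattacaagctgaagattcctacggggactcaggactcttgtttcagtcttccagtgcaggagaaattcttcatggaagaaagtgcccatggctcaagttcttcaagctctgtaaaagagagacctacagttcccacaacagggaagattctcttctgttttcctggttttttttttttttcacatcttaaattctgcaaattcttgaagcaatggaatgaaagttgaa
Npvf to Nfe2l3, rank 7580, chr6:51174500-51174799: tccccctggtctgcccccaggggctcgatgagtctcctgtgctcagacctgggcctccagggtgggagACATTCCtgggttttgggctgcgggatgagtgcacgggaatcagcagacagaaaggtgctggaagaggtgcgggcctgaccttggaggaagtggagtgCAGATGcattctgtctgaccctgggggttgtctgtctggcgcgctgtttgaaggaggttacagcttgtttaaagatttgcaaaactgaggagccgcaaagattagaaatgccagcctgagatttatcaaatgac
The stretches from Thap1 to Zfp703, Mki67 to Mgmt and Npvf to Nfe2l3 each held an E-box of the CAGATG type. Those from Mki67 to Mgmt and Npvf to Nfe2l3 held a TEAD match as well. The stretch beside Bcor is rich in CpG and holds none of the motifs in capitals.

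The next 4 are the best-ranked of all the members, and the rest are the best-ranked members, among those not already shown, that match GLI, CTCF and REST. The stretch from Klf14 to Mkln1 was placed around its GLI match, which lies away from the middle of the peak.
Nphp4 to Ajap1, rank 68, chr4:152799350-152799649: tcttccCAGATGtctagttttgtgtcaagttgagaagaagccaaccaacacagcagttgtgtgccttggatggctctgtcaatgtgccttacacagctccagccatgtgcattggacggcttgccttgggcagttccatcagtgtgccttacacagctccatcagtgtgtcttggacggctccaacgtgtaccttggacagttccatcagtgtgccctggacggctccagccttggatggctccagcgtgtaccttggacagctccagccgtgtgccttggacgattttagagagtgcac
Igsf21 to Arhgef10l, rank 277, chr4:140439875-140440174: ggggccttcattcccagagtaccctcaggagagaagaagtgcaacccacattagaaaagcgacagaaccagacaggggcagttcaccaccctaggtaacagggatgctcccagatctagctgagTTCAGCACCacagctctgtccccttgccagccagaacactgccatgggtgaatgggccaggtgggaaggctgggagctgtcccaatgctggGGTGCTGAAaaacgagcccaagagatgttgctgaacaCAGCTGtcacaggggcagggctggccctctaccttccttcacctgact
Immp2l to Dnajb9, rank 923, chr12:42972850-42973149: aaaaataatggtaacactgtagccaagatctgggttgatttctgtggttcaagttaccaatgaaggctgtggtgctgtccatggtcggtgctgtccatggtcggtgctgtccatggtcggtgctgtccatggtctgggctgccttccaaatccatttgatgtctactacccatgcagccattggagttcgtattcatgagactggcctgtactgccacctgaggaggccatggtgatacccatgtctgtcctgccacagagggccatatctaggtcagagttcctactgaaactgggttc
Opa1 to Hes1, rank 1448, chr16:29813875-29814174: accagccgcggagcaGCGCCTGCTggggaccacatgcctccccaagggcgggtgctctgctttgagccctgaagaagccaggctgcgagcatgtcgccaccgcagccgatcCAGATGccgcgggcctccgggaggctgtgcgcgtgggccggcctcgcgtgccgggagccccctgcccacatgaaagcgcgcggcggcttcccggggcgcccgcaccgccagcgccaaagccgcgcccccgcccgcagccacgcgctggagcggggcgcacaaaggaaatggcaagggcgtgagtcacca
Klf14 to Mkln1 with GLI, rank 3993, chr6:31216694-31216993: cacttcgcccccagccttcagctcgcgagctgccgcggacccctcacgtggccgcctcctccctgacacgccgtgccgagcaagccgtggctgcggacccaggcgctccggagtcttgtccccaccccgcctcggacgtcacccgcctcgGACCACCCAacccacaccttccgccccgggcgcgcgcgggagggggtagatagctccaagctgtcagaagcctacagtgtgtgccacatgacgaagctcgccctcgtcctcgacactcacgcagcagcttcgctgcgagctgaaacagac
Rps24 to Zmiz1 with CTCF, rank 1800, chr14:24779225-24779524: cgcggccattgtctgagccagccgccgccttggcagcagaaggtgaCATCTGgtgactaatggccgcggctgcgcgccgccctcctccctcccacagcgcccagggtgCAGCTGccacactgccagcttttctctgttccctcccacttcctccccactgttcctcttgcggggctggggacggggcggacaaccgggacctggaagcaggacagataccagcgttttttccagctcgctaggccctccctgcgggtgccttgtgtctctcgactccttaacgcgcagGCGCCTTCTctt
Glrx3 to Tcerg1l with REST, rank 2681, chr7:138084050-138084299: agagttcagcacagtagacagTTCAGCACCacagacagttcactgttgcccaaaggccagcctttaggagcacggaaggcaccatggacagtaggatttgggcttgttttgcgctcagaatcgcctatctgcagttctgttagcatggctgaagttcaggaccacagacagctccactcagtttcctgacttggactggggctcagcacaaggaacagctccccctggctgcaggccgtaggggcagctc
These stretches differ in composition. The peaks from Opa1 to Hes1 and from Rps24 to Zmiz1 had a GC content of 71.3% and 66.6%, while the peak from Immp2l to Dnajb9 had 45.8%. The stretches from Nphp4 to Ajap1 and from Immp2l to Dnajb9 repeat short words in tandem: 35.4% and 16% of the bases of these peaks lay in 12-base words that occur more than once within the peak. This was unusual among the members, of which 693 (84.9%) held no such word and 14 (1.72%; 1.02 to 2.86%) had at least 25% of their bases in them. Of the 41 members at ranks 1 to 3836, 3 reached 25%. The part of this repetition in the peak call was not tested.

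The space in which such a peak could lie was large. The bases that satisfied the same rule of position, leaving out unsequenced bases, came to 1046.7 Mb or 38.4% of the chromosomes. They held 0.780 members per Mb, against 5.63 peaks of any kind per Mb of the genome. The second value has no length limit and includes this space, so the measures differ. Within that space, members lay nearer to coding genes than the bases did. Of the members, 572 (70.1%; 66.9 to 73.1%) lay over 100 kb from a protein-coding TSS and 45 (5.51%; 4.15 to 7.30%) over 500 kb, whereas 79.9% and 24.5% of points placed every 1 kb in the same space did. All chromosomes but Y held members, from 0.321 per Mb of this space on X to 1.31 on chromosome 18, with 1.24 on chromosome 8, 1.23 on 19 and 1.21 on 2. Chromosome Y had 68.1 Mb of such space and 6 peaks of any kind.

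Most gaps held no member. Of 3916 gaps with at least some eligible space, 433 held a member: 259 held 1, 90 held 2, and 84 held 3 or more. These 84 gaps held 377 of the 816 members (46.2%) and 5.37% of the eligible bases, while 3483 gaps without a member held 78.0% of the bases. The gaps were sorted here by their own count of members, so a contrast of this direction follows from the sorting. The number of gaps that 816 evenly spread peaks would fill was not computed, and whether members cluster was not tested. The median distance from a member to the next member was 92851 bp, and 241 members (29.5%; 26.5 to 32.8%) had another within 10 kb. Of these, 173 members (21.2% of all; 18.5 to 24.1%) had another within 1 kb, and the list does not say whether such a run is 1 enriched region or several. When peaks at most 1000 bp apart were merged, 644 regions remained, the gaps with 3 or more fell in number to 59, and these held 35.9% of the merged regions.

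**Figure D1:**
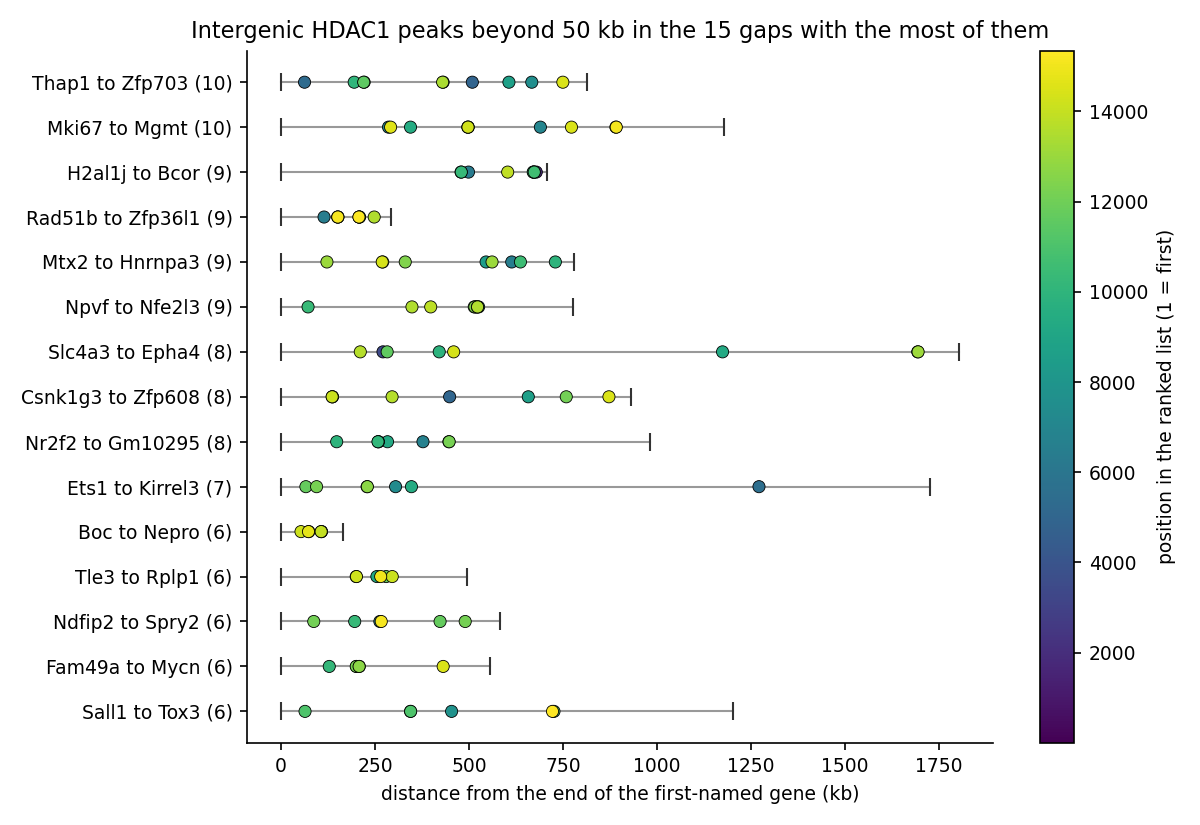
Positions of the members in the 15 gaps with the most of them, ties ordered by best rank. Each line is a gap between neighbouring protein-coding gene bodies, from the end of the first-named gene (0 kb) to the start of the second; circles are peaks coloured by position in the ranked list, and the number of peaks stands in brackets. Members from Rad51b to Zfp36l1 lay within 133.8 kb, and those from Slc4a3 to Epha4 were spread over 1484.5 kb.

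The gaps with the most members, 10 each, were Thap1 to Zfp703 and Mki67 to Mgmt. Zfp703 encodes a zinc-finger corepressor, Mki67 the proliferation marker Ki-67, and Mgmt an enzyme that repairs alkylated DNA. The 813 kb from Thap1 to Zfp703 held 15.0 members per Mb of eligible space, with ranks from 4914 to 14496, GC content from 41.0 to 55.1% and a median spacing of 77.7 kb. They ran from 62.5 kb past Thap1 to 63.1 kb short of Zfp703, and 6 of the 10 had Zfp703 as their nearest gene. The 1178 kb from Mki67 to Mgmt was thinner at 9.64 per Mb, and its members ranked from 6992 to 15054. In that gap 3 members lay 497 to 498 kb from Mki67, separated by 201 and 301 bp.

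Next came 4 gaps with 9 members each. All 9 members from H2al1j to Bcor lay nearest to Bcor, which encodes a corepressor that binds BCL6 and works with a variant Polycomb complex. They included the rank 1794 peak shown above, 72.9 kb from the Bcor TSS, and had the highest median GC content of these gaps, 56.7%. All 9 from Rad51b to Zfp36l1 lay nearest to Zfp36l1, which encodes a protein that promotes decay of AU-rich mRNAs. That gap was the densest of the 6 at 38.2 members per Mb. Of its members, 5 overlapped the noncoding gene Gm36660, and 4 of these followed each other at 51 to 201 bp. The lower-ranking piece of such a run was far down the list: the peak at rank 4288 had neighbours at ranks 9889, 11810 and 15243.

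The 781 kb from Mtx2 to Hnrnpa3 begins beside Mtx2, the neighbour of the Hoxd cluster, which patterns the limb along its length and in the digits. Its 9 members ranked from 6491 to 14328, spanned 608 kb, and 4 of them overlapped noncoding genes, among them 2600014E21Rik with 3. The gap on the other side of Hoxd, from Atp5g3 to Lnpk, was looked up after its values were seen. It held 5 members with a best rank of 4032, at 9.16 per Mb. From Npvf to Nfe2l3, where Npvf encodes a neuropeptide precursor and Nfe2l3 a bZIP transcription factor, 6 of the 9 members lay between 514 and 526 kb past Npvf.

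There were 3 gaps with 8 members and 1 with 7. From Slc4a3 to Epha4, an ephrin receptor used in limb cell sorting and motor axon guidance, 8 members were spread over 1484.5 kb at 4.60 per Mb, the best ranked 3367th, and 5 lay nearest to Slc4a3, an anion exchanger gene. From Csnk1g3 to Zfp608 on chromosome 18 there were 8 members at 8.86 per Mb, and 5 lay nearest to Csnk1g3, a casein kinase gene. From Nr2f2, which encodes the nuclear receptor COUP-TFII, to Gm10295 there were 8, all of them nearest to Nr2f2, from 148 to 447 kb past it. From Ets1 to Kirrel3 there were 7, of which 6 lay nearest to the transcription factor gene Ets1 and the best ranked 1646th.

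Of the 7 gaps with 6 members, the first 5 by rank were Boc to Nepro, Tle3 to Rplp1, Ndfip2 to Spry2, Fam49a to Mycn and Sall1 to Tox3. Boc encodes a coreceptor for HH ligands, Tle3 a Groucho corepressor, Spry2 an antagonist of receptor tyrosine kinase signalling, Mycn a MYC family factor, and Sall1 a zinc-finger factor needed in limb and kidney. The 165 kb from Boc to Nepro was the smallest of the 15 gaps and the densest, at 91.7 members per Mb of its 65.4 kb of eligible space. Its members ranked from 4336 to 14698. In it, 3 members lay 51 bp apart in a row at 106.6 to 107.6 kb from Boc. From Sall1 to Tox3 the members were spread over 663 kb, and 4 of 6 lay nearest to Sall1. In 10 of the 15 gaps both flanking genes had an HDAC1 peak at the promoter. Of all coding genes, taken singly, 44.0% had one. The share of all gaps with such a peak on both sides was not computed, so the count describes these 15 alone.

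Many of the flanking genes were regulators of development. Of the 816 members, 189 (23.2%; 20.4 to 26.2%) were flanked by at least 1 gene of a list of 195 limb patterning genes, compared with 8.05% of the eligible bases. Genes of a chosen set of transcription factor families flanked 198 members (24.3%; 21.4 to 27.3%) and 11.0% of the bases. That set is not complete and leaves out Ets1, Nfe2l3 and Zfp608, for example. Genes of signalling families, which here include the Eph, Robo, Slit and semaphorin genes of axon guidance, flanked 62 members (7.60%; 5.97 to 9.62%) and 5.26% of the bases. Genes for cell adhesion, such as cadherins and protocadherins, flanked 32 members (3.92%; 2.79 to 5.48%) and 14.0% of the bases. The lists overlap: a gene of any of the first 3 flanked 277 members (33.95%; 30.8 to 37.3%) and 16.2% of the bases. With the gene of the nearest TSS alone in place of either neighbour, the shares were 19.4% of the members and 8.44% of the bases. No test of these differences was made, because members of a gap share their flanking genes. The lists were chosen with earlier results of these data known, so these shares are no independent observation.

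**Figure D2:**
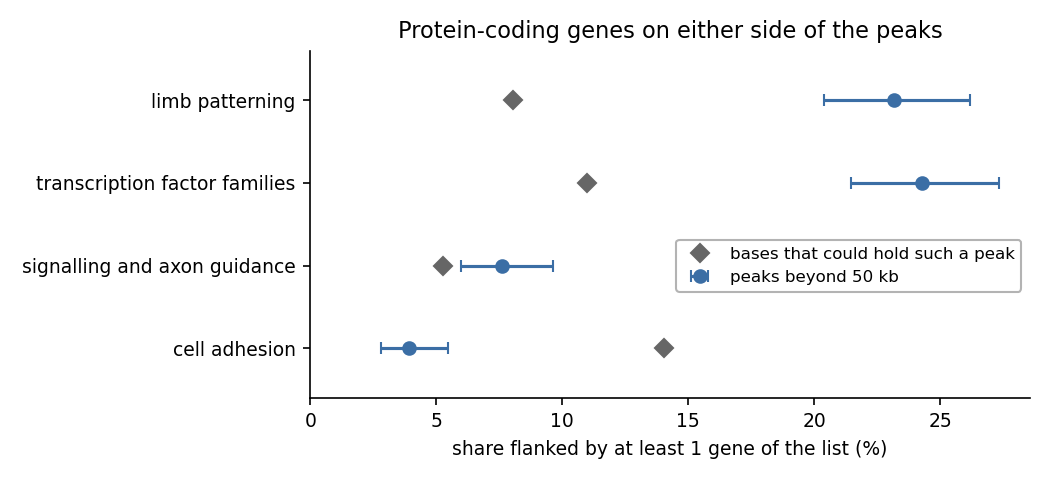
Share of members flanked by at least 1 gene of each list (circles, 95% Wilson intervals over 816 peaks) beside the share of all bases that could hold such a peak (diamonds). Limb patterning genes stood beside 23.2% of the members and 8.05% of the bases, and cell adhesion genes beside 3.92% and 14.0%. The lists were chosen with earlier results of these data known.

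Of the limb patterning list, 71 genes flanked a member. Those with the most were Sox9 with 9, Epha4 and Nr2f2 with 8 each, Gas1 with 7, and Boc, Spry2, Sall1 and Tshz3 with 6 each. Sox9 encodes the factor that starts cartilage formation, and Gas1, like Boc, a coreceptor for HH ligands. Of its 9 members, 5 lay from Kcnj2 to Sox9, where the best ranked 7945th and all were nearer to Kcnj2, and 4 lay from Sox9 to Slc39a11, the nearest 88.0 kb from the Sox9 TSS. Next to Gas1 the best member ranked 3575th and the nearest lay 91.8 kb away, while a peak 90.2 kb from Gas1 at rank 396 was left out because its length was exactly 800 bp. The nearest member beside Boc lay 53.1 kb away. All 8 of these genes had an HDAC1 peak in their own promoter window, as did 65 of the 71 (91.5%) genes of the list that flanked a member. Of all coding genes, 44.0% had one. The share over the whole list of 195 genes was not computed, so the 91.5% cannot be tied to having a member nearby.

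Of the transcription factor families on the list, Zfp703 flanked 10 members, and Tcf7l2 and Mycn flanked 7 each after Sox9 and Nr2f2. Some genes off the list had as many or more. Zfp608 flanked 8 members in the gap from Csnk1g3 and 5 in the gap to Gramd3. Nfe2l3 flanked 9 in the gap from Npvf, and Ets1 7 in the gap to Kirrel3. Tcf7l2, an effector of WNT signalling, had its best member at rank 2474. Tox3, an HMG-box gene, flanked 6, as did Sall1, Tshz3 and Zfp536. Of the signalling families, after Epha4 and Spry2 came Robo2, Jag1 and Dusp6 with 4 each and Cxcl12, first by rank among those with 3. Jag1 encodes a Notch ligand, Dusp6 a phosphatase that dampens FGF signalling through ERK, and Cxcl12 a chemokine. For Dusp6 all 4 members had it as their nearest gene, at 112 to 127 kb, and ranked from 8779 to 13326. Of the adhesion list, Kirrel3 flanked 7, in the gap it shares with Ets1, Cdh8, Cdh4 and Cdh26 flanked 3 each, and Pcdh15 was the first by rank of those with 2.

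The genes nearest to the members usually carried HDAC1 at their own promoters. Of the 816 members, 575 (70.5%; 67.2 to 73.5%) had as their nearest gene one with a peak in its own TSS window. The share was 47.1% of points over the same space and 44.0% of all coding genes (9621 of 21862). Counting each gene once, 326 of the 495 distinct nearest genes (65.9%; 61.6 to 69.9%) had such a peak. The share was much like that for the 730 short intergenic peaks within 50 kb, 66.2% (62.7 to 69.5%), and for the 1976 short distal peaks inside coding genes, 72.3% (70.3 to 74.2%).

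Members lay low in the ranked list. Their median rank was 10897, and 195 of 816 (23.9%; 21.1 to 26.9%) stood in the first 7674 places. Ranks 1 to 3836 held 41 members, or 1.07% of those peaks, and ranks 11512 to 15347 held 365, or 9.52%. Length moved with rank: the median length of all peaks was 1050 bp in the first of these stretches and 250 bp in the last, and the rule kept short peaks alone. Counted among peaks shorter than 800 bp, members made up 3.59% (2.66 to 4.83%) of those at ranks 1 to 3836, 5.58% and 7.16% in the next 2 stretches, and 9.64% (8.74 to 10.6%) of those at ranks 11512 to 15347. The 730 short intergenic peaks within 50 kb rose from 2.54% to 8.21% over the same stretches. Of short peaks at coding TSS, 41.1% stood in the first 7674 places. The share was 23.7% for short distal peaks inside coding genes and 20.3% for short intergenic peaks within 50 kb, so the low position was not particular to the members. Rank comes from the same peak call as the rule's positions, so these values are a description.

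**Figure D3:**
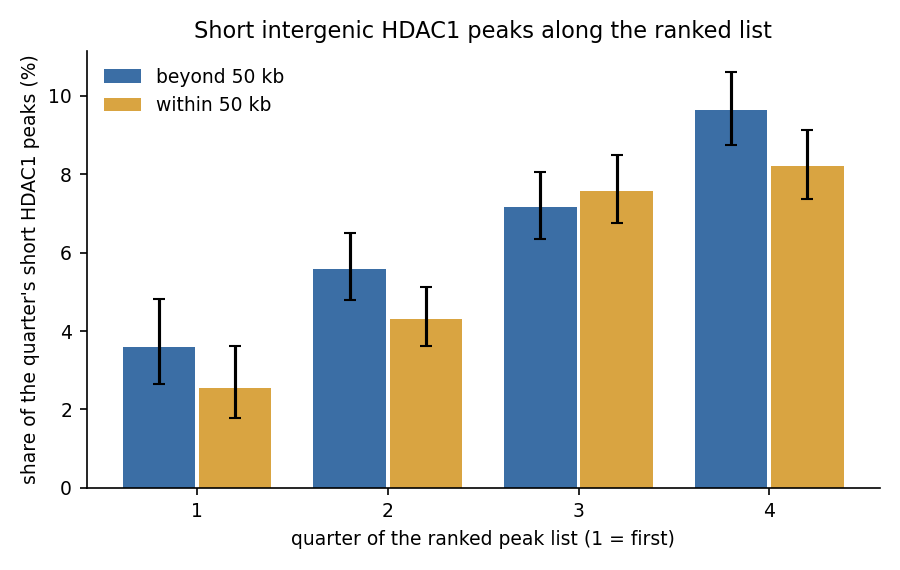
Share of HDAC1 peaks shorter than 800 bp that were intergenic beyond 50 kb (blue) or within 50 kb (yellow) in each of 4 equal stretches of the ranked list, with 95% Wilson intervals. Both shares were higher at each step down the list, from 3.59 to 9.64% beyond 50 kb.

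The members that ranked highest were scattered over the genome. The first, at rank 68, was 700 bp long and lay 315 kb from the Nphp4 TSS. The second, at rank 277, lay 142 kb from Arhgef10l, and both REST matches that it holds are in the stretch shown. The third, at rank 923, lay 1237 kb from Dnajb9 and was also the farthest of all members from a TSS, and its nearest other peak of any kind lay 1169851 bp away. After it came rank 1448 from Opa1 to Hes1, where Hes1 encodes a Notch-responsive repressor, rank 1646 beside Ets1, rank 1655 at 219 kb from Tcf4, rank 1794 beside Bcor, rank 1800 from Rps24 to Zmiz1, rank 2019 at 330 kb from Il7, and rank 2348 at 287 kb from the corepressor gene Tle3. Of these 10, 3 had a CpG-island-like composition and 6 overlapped a noncoding gene. Among all members the shares were 7.35% and 17.0%, and among those in the first 7674 places they were 11.8% and 14.9%. The noncoding share was therefore no higher in that part of the list, and the counts describe these 10 alone.

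At the other end, the last 3 members of the list stood at rank 15311 near Tox3, 15332 near Cadm1 and 15337 near Mlip, and each was 200 to 250 bp long. The 5 farthest members lay 1065 to 1237 kb from a TSS. Their nearest genes were Cdh8, Zeb2, Cdh7, Got2 and Dnajb9, and apart from the rank 923 peak they ranked from 8034 to 14384. Among them the peak near Cdh7, 150 bp long, was wholly soft-masked as repeat, and the one near Zeb2 was 64.0% masked.

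The edges of the rule cut through continuous ground. The nearest members inside the 50 kb limit lay 50053 bp from Atf7ip, 50055 bp from Foxp4 and 50095 bp from Zfp36l1, at ranks 6296, 7685 and 13531. The nearest outside it lay 49589 bp from Gnpnat1, 49473 bp from Mylip and 49355 bp from Foxp4, at ranks 4745, 6579 and 4170. The peaks on either side of the limit near Foxp4 were 151 bp apart. The length limit left out 59 further intergenic peaks beyond 50 kb, up to 2250 bp long and with a best rank of 25, and 14 members were 750 bp long. The best-ranked of those 14 lay near Tcf4, Tm2d1 and Zfp64, and the first 3 peaks past the limit, at 800 bp, lay near Gas1, Rpusd4 and Cited2.

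In base composition the members were intermediate. Their median GC content was 48.4%, with the middle of the distribution from 44.4 to 53.2%. In windows of 200 bp the mean was 49.4% at the centres of the members and 39.8% over the same space. The median was 53.5% for the short intergenic peaks within 50 kb and 52.0% for the short distal peaks inside coding genes. A CpG-island-like composition (GC of at least 50%, CpG observed over expected of at least 0.6 and a length of at least 200 bp) was found in 60 members (7.35%; 5.75 to 9.35%), in 26.7% (23.6 to 30.0%) of the peaks within 50 kb, in 19.2% of those inside genes and in 0.425% of the 200 bp windows of the space. Peaks were scored over their whole length and the space in fixed windows, so the measures differ. The 60 had a median rank of 8992 and lay nearer to genes, at a median of 82938 bp, than the other 756 at 176286 bp. Of those 60, 8 (13.3%) held CAGCTG in the central 200 bp, compared with 22.2% of the others. This difference rests on few peaks and was not tested.

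Repeats were scarcer in the peaks than in the space where they lay. A mean of 10.9% of a member's bases was soft-masked, as was 43.2% of the space, and 26 members (3.19%; 2.18 to 4.63%) were masked over at least 50% of their length, as were 37.9% of 200 bp windows. The mean was 11.3% for the short intergenic peaks within 50 kb and 10.2% for the short distal peaks inside coding genes. Over all HDAC1 peaks the mean was lower, 7.62%, and 0.990% were masked over at least 50% of their length. Beside this, in 785 members (96.2%; 94.7 to 97.3%) no 50-base word occurred elsewhere in the genome, and 5 members had at least 50% of their words repeated. The part of mappability in the scarcity of repeats was not tested. The profile around the peaks showed the drop in repeats at the centre, from about 23.6% of bases at 2 kb to 10.5% in the bin before the centre, beside a rise in GC content from 44.2 to 49.5%.

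**Figure D4:**
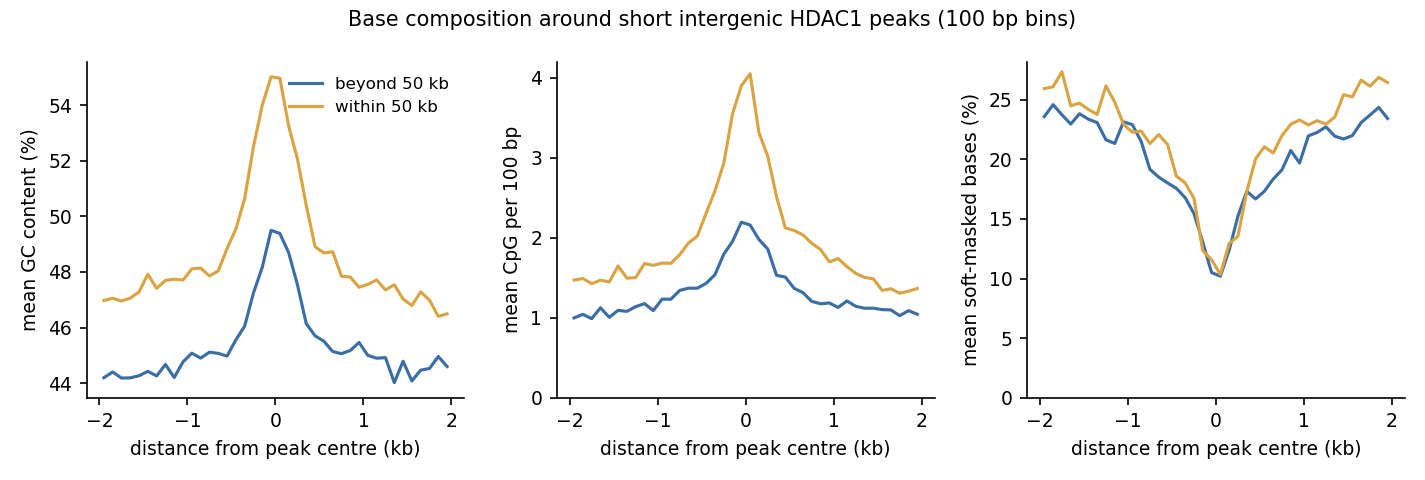
Mean GC content, CpG per 100 bp and soft-masked bases in 100 bp bins over 2 kb to each side of the peak centre, for 816 short intergenic HDAC1 peaks beyond 50 kb (blue) and 730 within 50 kb (yellow). Beyond 50 kb the CpG count was 0.999 per 100 bp at the left edge and 2.196 beside the centre, below the peaks within 50 kb in every bin.

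Several sequence words were more frequent in the members than in the rest of the space, of which E-boxes were the most common. In the central 200 bp, CAGCTG was present in 176 members (21.6%) and in 5.89% of the windows of the space. It was present in 17.0% of the short intergenic peaks within 50 kb and 19.6% of the short distal peaks inside coding genes. For CAGGTG the shares were 17.5% of the members and 16.3% and 17.4% of those 2 classes, and for TAATTA 10.7%, 6.58% and 6.02%. Those 2 classes had a higher median GC content than the members, and their shares were not matched on it. Composition differs between the members and the space, so the windows with a GC content of 45 to 55% were compared, which held 435 members. In these CAGCTG was present in 23.7% (19.9 to 27.9%) of members and 10.8% of windows, and TAATTA in 9.89% (7.42 to 13.1%) and 2.66%. CAGATG was present in 23.9% (20.1 to 28.1%) and 18.8%, and CAGGTG in 21.1% (17.6 to 25.2%) and 16.2%. CATATG, an E-box with another centre, went the other way, with 4.37% (2.81 to 6.72%) and 8.68%. CAGCTG was added to the search after a first look at the words common in these peaks, so its share is no independent observation. The other words were also chosen with earlier results of these data known. Over whole peaks, CAGCTG was present in 31.4% of members, CAGATG in 31.0% and TAATTA in 15.3%.

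Words for other factors were rarer. In the same band of GC content, the HOX-PBX word TGATTNAT was present in 4.60% (2.996 to 6.995%) of members and 2.12% of windows, and the TEAD word ACATTCC in 4.60% (2.996 to 6.995%) and 2.79%. The RUNX word TGTGGTT, for factors of skeletal development, was present in 4.83% (3.18 to 7.27%) and 3.87%. The short GLI word GACCACC was present in 2.76% (1.59 to 4.76%) and 2.51%, and the full GLI word GACCACCCA in 0.460% (0.126 to 1.66%, 2 of 435 members) and 0.269%. The CTCF word AGNNGGCGC, for the factor that anchors chromatin loops, was present in 1.61% (0.782 to 3.28%) and 0.740%. Other peak classes held it more often. Without the band of GC content it was in 2.08% of members and 5.75% of short intergenic peaks within 50 kb. It was in 3.745% of short distal peaks inside coding genes and 10.5% of short peaks at coding TSS. The left part of the REST site, TTCAGCACC, was present in 1.15% (0.492 to 2.66%, 5 members) and 0.364%, and the RFX word GTTGCCATG in 0.919% (0.358 to 2.34%, 4 members) and 0.261%. The interval of the members spanned the value of the windows for the TCF-LEF, SOX, GATA, ETS, MEIS-TGIF, SP-KLF, NRF1 and YY1 words. The AP-1 word TGANTCA was present in 3.45% (2.101 to 5.61%) of members and 5.62% of windows, and the NFY word CCAATCA in 1.15% (0.492 to 2.66%) and 3.00%.

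**Figure D5:**
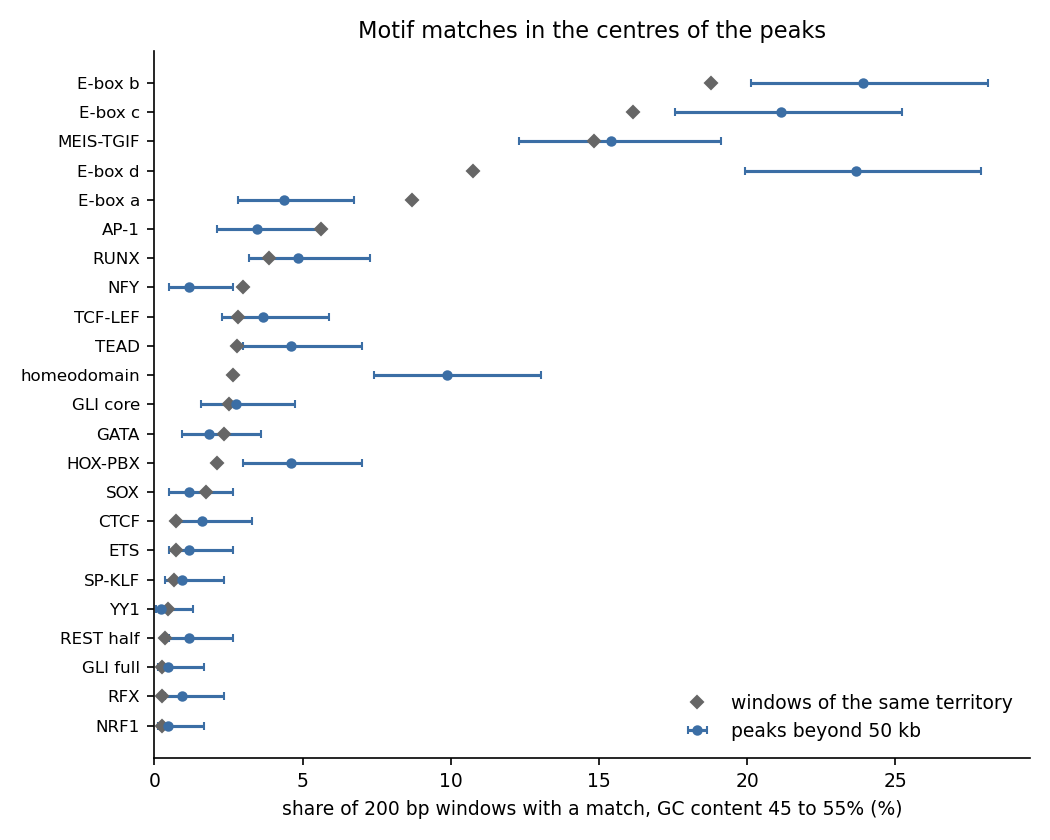
Share of 200 bp windows with a GC content of 45 to 55% that held each of 23 words on either strand, for the centres of 435 members (circles, 95% Wilson intervals) and for all windows of the same space (diamonds). E-box a stands for CATATG, while E-box b stands for CAGATG. E-box c stands for CAGGTG, and E-box d, which was added later, stands for CAGCTG. E-box d at 23.7% and the homeodomain core at 9.89% lay farthest above the windows in percentage points, at 10.8 and 2.66%.

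The full GLI word occurred in 5 members over their whole length, and in the central 200 bp of 3 (0.368%; 0.125 to 1.07%), compared with 0.127% of the windows of the space. Of the 5, 4 lay from Klf14 to Mkln1 (rank 3993, shown above), from Xkr9 to Eya1 (rank 9295), from Fbxo2 to Disp3 (rank 11231) and from Hspa9 to Ctnna1 (rank 11574). Disp3 belongs to the Dispatched family. The left part of the REST site occurred in 10 members, and in the central 200 bp of 8 (0.980%; 0.498 to 1.92%), compared with 0.187% of the windows. Of the 10, 3 were also among the 12 members with the most bases in repeated words: Ces1h to Ces5a at 74.5%, Prmt6 to Amy2a5 at 58.5% and Gucy1a2 to Aasdhppt at 56.8%. These words are matches of letters and do not show binding by the factor.

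Although the rule avoided coding genes, some members lay in noncoding ones. Of the 816, 139 (17.0%; 14.6 to 19.8%) overlapped a gene that is not protein-coding, and such genes covered 10.3% of the eligible space. A member counted if any of its bases was shared, while the 10.3% is a share of single bases, so the measures differ. Most of the overlapped genes were lincRNA genes, 86 of them with 114 members, followed by 13 processed transcripts with 19 members and 5 antisense genes with 7. Gm36660, beside Zfp36l1, held 5 members. Gm12729 and B530045E10Rik held 4 each, with best ranks of 3072 and 8779. Lncpint, a long noncoding RNA induced by p53, held 2 members with a best rank of 3993, 1 of them the GLI-matching peak from Klf14 to Mkln1.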

How the data were processed

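Per the labels, HDAC1 ChIP-seq libraries of 4 ChIP and 3 input samples of E11.5 limb buds were made with 15 cycles of amplification. According to the submitters' processing notes and the study's methods, reads were aligned to mm10 with Bowtie2 (version 2.2.5) and peaks were called with CisGenome at the authors' false discovery rate threshold. The deposited columns are coordinates in bp, with no count, signal or score for a peak or a sample, so the depth behind a peak is unknown and 95% Wilson intervals cover counting over regions only. Row order was taken as rank, because the study describes its peak coordinates as rank ordered. Coordinates were read as 1-based with both ends included, since every length was then a multiple of 50 bp.

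Peaks were set against the GENCODE M21 basic annotation and the GRCm38 sequence (the mm10 assembly) in Python 3.11.15 with numpy 2.4.6, scipy 1.17.1 and pandas 2.3.3. A peak overlapped a gene where it shared at least 1 bp. The comparison space was every sequenced base that met the rule of position. Words were searched on both strands. Overlap, distance and word counts were tested on simulated intervals and sequences. The members, gene lists and words were chosen with earlier results of these data known, 22 words in a first list. CAGCTG, the band of GC content from 45 to 55% and the 12-base words were added after seeing the data. Gaps were named as the 15 with the most members, ties by best rank, with the 10 best-ranked, 5 farthest and last 3 members, the 3 nearest each limit, and up to 6 flanking genes a list. Alternatives were other limits of distance and length, the first 7674 peaks, merging, other overlap and TSS rules, and other windows and definitions of a gap with several members. No test over samples was possible, because 1 list stands for all samples. Some items of the printed sequences and flanking genes are not reported here.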

Additional observations from a re-analysis of the deposited data

How the results depend on the processing

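Of 141 values under alternative settings, 110 stayed within their interval or within 1.5 times the value, and 31 moved. Medians of rank, length and GC content were among them and all counted as unmoved, although median length went from 300 to 400 bp in the first 7674 peaks. Distance from the peak centre again gave 816 members. Such values could hardly move, so the 110 is no measure of robustness. A distance limit of 25 kb gave 6.86% of all peaks with 10.5% CpG-island-like, and one of 100 kb gave 3.73% and 4.55%. Without a length limit the share was 5.70%, with 28.1% in the first 7674 places. Below 500 bp the share was 4.41%, with 18.2% in those places, CAGATG in 26.9%, TAATTA in 12.6% and 41.9% in gaps with 3 or more. The first 7674 peaks alone left 195 members, 2.54% of that part of the list, with 11.8% CpG-island-like, 0.513% with 50% or more of their bases soft-masked, CAGCTG in 37.95%, CAGATG in 37.95%, TAATTA in 19.5%, and 7.69% in 5 gaps with 3 or more. Windows of protein-coding TSS alone gave 6.28% of all peaks, with 13.5% CpG-island-like and 25.65% over a noncoding gene. Merging left 35.9% in gaps with 3 or more. There were 174 gaps with at least 2 members and 51 with at least 4. Counting the nearest gene alone, 19.4% had a regulator. In the central 200 bp, CAGCTG was in 21.6%, CAGATG in 22.8% and TAATTA in 10.7%. Of the members, 65.1% had at least 1 soft-masked base. The cause of these shifts was not tested. No paired analysis was possible because the list holds no column for a single sample; for the same reason no sample could be left out, and depth sets an unknown limit on weak peaks.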
